A study of Homo sapiens with 8 samples.

Results

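The unfolded protein response and the integrated stress response were followed at the mRNA level through 34 genes in 2 pancreatic cancer cell lines after silencing of HOXB7. The genes were taken by name from the annotation of the array, and all 34 had a probe. Their choice was made with earlier results of these data known, so counts over them are not blind to these data. The members were 34 of 27363 genes, with 45 of the 34127 gene probes. By the branch of the response that each is best known for, 9 genes were assigned to the PERK/ATF4 arm, 10 to the IRE1/XBP1 arm and 13 to the ATF6 arm, while CANX and PDIA3 were given no arm. Many targets answer to more than 1 branch, so these arms are working lists.

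RNA was measured on 8 Agilent arrays that carry a single dye. MIA PaCa-2 and Capan-1 are cell lines from pancreatic ductal adenocarcinoma, Capan-1 from a hepatic metastasis, and they were grown in different media. In each cell line, 2 arrays held cells that had received 10 nM of siRNA specific for HOXB7 and were harvested 48 hours later, and 2 arrays held parental cells, which the labels list as the control. No array of cells given scrambled siRNA was among the 8, so the act of transfection and the loss of HOXB7 cannot be told apart. Which siRNA duplex was used is not stated in the labels. The paper describes RPMI as the medium for transfection, while Capan-1 was otherwise kept in IMDM. Whether its parental cells were also moved to RPMI is not stated, so in Capan-1 medium and siRNA may not be separable.

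Proteins of the secretory route fold in the endoplasmic reticulum, and when unfolded proteins accumulate there, the sensors PERK (EIF2AK3), IRE1 (ERN1) and ATF6 are activated. PERK slows protein synthesis by phosphorylating eIF2alpha, as other kinases do upon lack of amino acids or heme, and translation of the transcription factor ATF4 then increases, which is the integrated stress response. IRE1 splices the XBP1 mRNA, and XBP1 and cleaved ATF6 raise chaperones, folding enzymes and the machinery that removes misfolded proteins. Pancreatic exocrine cells are known for their heavy secretory load and for their dependence on this response. Splicing, cleavage and phosphorylation are not measured by an expression array.

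Each array held 43118 gene spots, of which 69.2% to 74.3% were well above background. Values are log2 intensities relative to the 75th percentile of the array, so that 0 is the level of that percentile, and differences are siRNA minus parental unless stated otherwise. Differences were tested two-sided with limma in a single fit of all 8 arrays, and a gene was called when at least 1 probe had a Benjamini-Hochberg adjusted p under 0.05 over all probes tested and no probe passed the other way. Of the 45 member probes, 42 were well above background on all 8 arrays, and a dim probe of DERL3 and a dim probe of SEL1L were not tested in any comparison. The cell lines lay on separate slides, with siRNA arrays at positions 1 and 2 and parental arrays at 3 and 4, so slide and cell line, and position and treatment, cannot be told apart. With 2 arrays against 2, the smallest p that an exact permutation test can reach for a gene is 0.33. Nothing in the labels ties the arrays of a group to separate cultures, so the p-values measure the spread between these arrays, which may be technical. Before scaling, the log2 75th percentile of the siRNA arrays differed from that of the parental arrays by -0.22 for MIA PaCa-2 and -0.16 for Capan-1.

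HOXB7 itself gave -7.76 and -7.78 on the MIA PaCa-2 siRNA arrays, where it was not well above background, and -4.82 and -4.09 on the parental arrays. HOXB7 mRNA was therefore at least 2.85-fold lower (limma adjusted p = 0.0173). The adjusted p ran up to 0.0819 when 1 array was left out, and was over 0.05 without siRNA replicate 1 or any Capan-1 array. It was also over 0.05 with no filter on dim probes (limma adjusted p = 0.0515), with MIA PaCa-2 fitted alone (0.111) and with the replicate block (0.169), and the difference was -0.10 (0.599) with normexp background correction, an alternative that starts from the mean signal and the local background of each spot. In Capan-1 the values were -5.26 and -4.80 against -2.48 and -2.34, a log2 difference of -2.62 with a limma adjusted p of 0.121.

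In MIA PaCa-2, 2 members fell after HOXB7 siRNA and no member rose. These were CHAC1, an ATF4 target whose product degrades glutathione, and GFPT1, the rate-limiting enzyme of the hexosamine pathway, of which only the dimmer of 2 probes passed. Of all 19221 genes tested, 1.12% were called lower and 1.17% higher, beside 2 and 0 of the 34 members. These were 215 and 225 genes, a split that became 33 and 14 when arrays were not scaled and 37 and 16 when the spike-in probes set the scale. Both siRNA arrays were below both parental arrays for 6 of 9 genes of the PERK/ATF4 arm and above for 2. For the ATF6 arm 7 of 13 genes were above and 2 below, and over all genes 23.8% were below and 28% above. Without scaling, 7 of the 13 had a log2 difference under 0, against 77.6% of all genes. CHAC1 was the only gene of these 2 arms to pass the test. In Capan-1 no member was called.

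CHAC1 has 2 probes, which lie 757 bases apart in hg18, the build of the array annotation. GFPT1 has 2 probes 5003 bases apart on the minus strand, the dimmer one on the downstream side. The first 30 of the 60 bases of each are shown, since the result for GFPT1 depends on which of them is read.
CHAC1 brighter probe, chr15:39035923-39035982 (+): ttcctgggaagctcatcactacaggccctg
CHAC1 dimmer probe, chr15:39035106-39035165 (+): ttctccggccacaaccttgaatacttgctg
GFPT1 brighter probe, chr2:69406014-69406073 (-): gtacatgttgggtatcctactactttgtgt
GFPT1 dimmer probe, chr2:69400951-69401010 (-): gaattcccaaaccatgtaacactcattgag
The annotation of the array files lists 2 Ensembl transcripts, 1 RefSeq and 1 GenBank accession for the brighter GFPT1 probe, and no Ensembl transcript, 1 RefSeq and 3 GenBank accessions for the dimmer one. Both CHAC1 probes carry the same kinds of accession, 2 from Ensembl and 2 from RefSeq.

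The brighter CHAC1 probe measured 0.49 and 0.54 on the siRNA arrays of MIA PaCa-2 and 1.39 and 1.21 on its parental arrays. The log2 difference was -0.78 (SE 0.0968), a 1.72-fold decrease, with a limma adjusted p of 0.0300. The siRNA pair was separated from the parental pair by more than the gap within either pair. In Capan-1 the same probe measured 1.26 and 1.24 after siRNA and 1.08 and 1.19 in parental cells, a log2 difference of 0.11 (limma adjusted p = 0.654). The level of CHAC1 in the siRNA arrays of MIA PaCa-2 was thus the lowest of the 4 groups, the other 3 lying between 1.08 and 1.39. The dimmer CHAC1 probe gave -2.99 and -2.96 against -1.96 and -2.42 in MIA PaCa-2, again a log2 difference of -0.78, with a limma adjusted p of 0.0727. That value was less stable than on the brighter probe, ranging from -1.01 to -0.55 when 1 array was left out (the ends without parental replicate 2 and replicate 1) and amounting to -0.24 with normexp background correction, where the brighter probe gave -0.72. In Capan-1 it differed by -0.13, with a limma adjusted p of 0.778. The call of CHAC1 was lost when any 1 of the 8 arrays was left out, with limma adjusted p between 0.0504 and 0.107 for the brighter probe.

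The dimmer GFPT1 probe measured -3.66 and -3.72 after siRNA and -2.15 and -2.24 in parental MIA PaCa-2 cells. It fell by 1.49 on the log2 scale (SE 0.0934), a 2.81-fold decrease, with a limma adjusted p of 0.0157. With normexp background correction the same difference was -0.46 (limma adjusted p = 0.0131). On the brighter probe the same arrays gave 0.15 and -0.00 against 0.02 and 0.16, a log2 difference of -0.01 (limma adjusted p = 0.956). The groups were well separated on the dimmer probe and overlapped on the brighter one. In Capan-1 the dimmer probe measured -1.14 and -0.99 against -0.62 and -0.51, a log2 difference of -0.50 (limma adjusted p = 0.209), and the brighter probe 2.88 and 2.87 against 2.64 and 2.62, a log2 difference of 0.25 (limma adjusted p = 0.385). The 2 probes therefore moved in opposite directions in Capan-1, each with no overlap between the groups and neither past the threshold. The call of the dimmer probe in MIA PaCa-2 remained with any array of that cell line left out and was lost without any 1 of the 4 Capan-1 arrays (limma adjusted p between 0.0582 and 0.0819) and in a fit of MIA PaCa-2 alone (0.111). Which transcripts each probe detects was not tested.

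**Figure D1:**
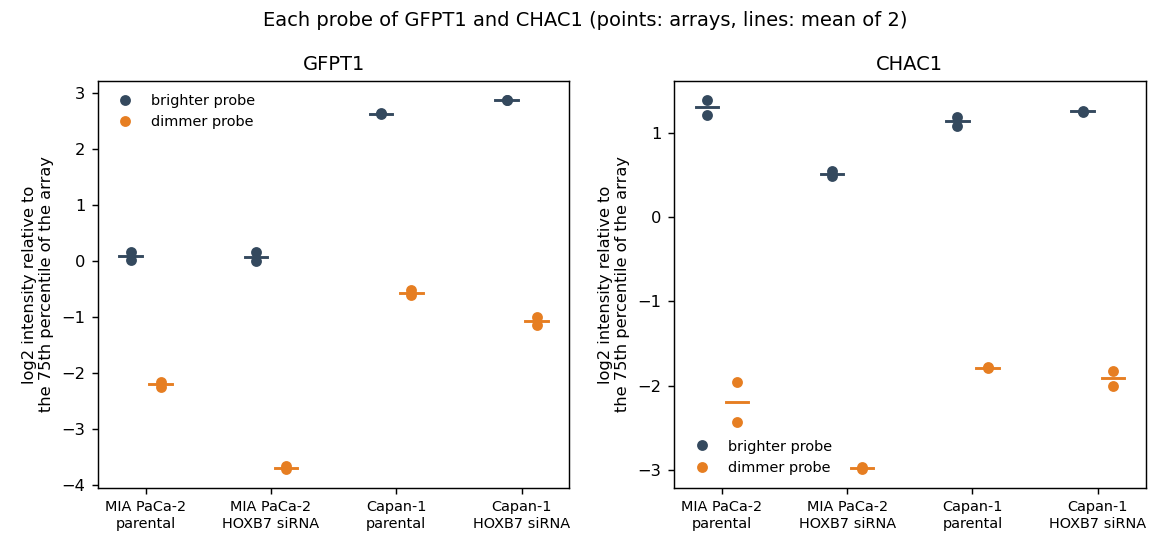
Log2 intensity relative to the 75th percentile of the array for both probes of GFPT1 and CHAC1 in the 4 groups. Points are arrays and lines are means of 2 arrays. In MIA PaCa-2 the dimmer GFPT1 probe went from -2.15 and -2.24 to -3.66 and -3.72 after siRNA while the brighter one stayed between -0.00 and 0.16, and both CHAC1 probes were lower by 0.78 on the log2 scale.

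The remaining genes of the PERK/ATF4 arm were read by the same 2 against 2 arrays. ATF4, the transcription factor at the center of the integrated stress response, measured 5.90 and 5.90 after siRNA and 6.21 and 6.42 in parental MIA PaCa-2 cells, a log2 difference of -0.41 (SE 0.111, limma adjusted p = 0.118). TRIB3, a pseudokinase that restrains ATF4, gave 3.88 and 3.73 against 4.26 and 4.39, a log2 difference of -0.51 (SE 0.121, limma adjusted p = 0.0945). ASNS, asparagine synthetase, gave 5.07 and 5.20 against 5.49 and 5.57, a log2 difference of -0.40 (SE 0.0990, limma adjusted p = 0.103). The siRNA values of these 3 genes were all below the parental values, and none passed the threshold. DDIT4, an inhibitor of mTORC1 signalling that ATF4 induces, measured 3.58 and 3.64 against 3.82 and 3.83, a log2 difference of -0.21 (limma adjusted p = 0.202). The brightest probe of ATF3, a transcription factor induced by ATF4, measured -0.47 and -0.63 against -0.12 and -0.29, a log2 difference of -0.35 (limma adjusted p = 0.132). The other 3 ATF3 probes gave -0.34, 0.16 and -0.44, each with overlapping groups, so the probes of ATF3 disagreed in sign.

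The kinase PERK itself (EIF2AK3) lay on the other side of its targets, with -2.65 and -2.68 after siRNA and -3.22 and -2.79 in parental cells, a log2 difference of 0.34 (limma adjusted p = 0.348). DDIT3, which encodes the pro-apoptotic factor CHOP, measured -0.44 and -0.41 against -0.44 and -0.58, a log2 difference of 0.09 (limma adjusted p = 0.619). PPP1R15A (GADD34), which directs the phosphatase that removes the phosphate from eIF2alpha, differed by 0.04 with overlapping groups. Counted over the arm on the brightest probe of each gene, both siRNA arrays were below both parental arrays for 6 of 9 genes and above for 2. Over all genes these shares were 23.8% below and 28% above. Of all 34 members, 13 had a log2 difference under 0, against 46.7% of all genes. An unadjusted limma p under 0.05 was reached by the same 6 genes in the lower direction, against 10.3% of all genes, and by no gene of the arm in the higher direction, against 10.5%. The arm had a median log2 difference of -0.35, and the median of all genes was 0.02. These genes share regulators and were read on the same arrays, so the 6 are not independent of each other.

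In the IRE1/XBP1 arm, XBP1 was the only gene with both siRNA arrays of MIA PaCa-2 below both parental arrays on its brightest probe. XBP1, the transcription factor of the arm, measured 4.03 and 3.89 against 4.23 and 4.26, a log2 difference of -0.28 (SE 0.0824, limma adjusted p = 0.136). Its probe reads XBP1 mRNA, and whether the spliced form differed was not tested. The sensor ERN1 was dim, with -4.78 and -4.67 after siRNA and -4.79 and -4.92 in parental cells, a log2 difference of 0.14 (limma adjusted p = 0.779). DNAJB9, a cochaperone of the endoplasmic reticulum and a target of XBP1, measured 0.58 and 0.25 against 0.34 and 0.27, and EDEM1, which draws misfolded glycoproteins out of the folding cycle, -1.80 and -1.57 against -2.28 and -1.75. The groups overlapped in both. Values were higher on both siRNA arrays for ERN1, DERL2 and DERL3, the last 2 being parts of the channel through which misfolded proteins leave the endoplasmic reticulum. The arm thus had 1 of 10 genes below on both arrays and 3 above, against 23.8% and 28% of all genes. The median of the arm was 0.09, or 0.11 without GFPT1.

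In the ATF6 arm, 7 of 13 genes had both siRNA arrays of MIA PaCa-2 above both parental arrays and 2 below, against 28% and 23.8% of all genes. The median log2 difference of the arm was 0.20, and it was -0.01 when the arrays were not scaled, which shifted the median of all probes by -0.22. CRELD2, a secreted protein of the endoplasmic reticulum, measured 3.29 and 3.17 against 2.83 and 2.79, a log2 difference of 0.42 (SE 0.0954, limma adjusted p = 0.0886). HSPA5 (BiP), the main chaperone of the compartment and the standard readout of its stress, measured 1.34 and 1.26 against 0.97 and 1.11, a log2 difference of 0.26 (SE 0.104, limma adjusted p = 0.235). ATF6 itself gave 1.40 and 1.25 against 1.40 and 1.32, a log2 difference of -0.03. CRELD2 and HSPA5 had all siRNA values above all parental values, and the ATF6 values overlapped. The other genes on the higher side were CALR at 0.25, PDIA4 at 0.46, PDIA6 at 0.29, DNAJB11 at 0.22 and SDF2L1 at 0.20, which are chaperones, disulfide isomerases and their partners, with limma adjusted p between 0.281 and 0.441. PDIA4 owed its size to a wide parental pair, 2.79 and 3.45, beside 3.60 and 3.56 after siRNA. Parental replicate 1 was also the lower one for HSPA5, CALR (6.90 and 7.22), PDIA6 (3.64 and 3.93) and DNAJB11 (2.85 and 3.14). For CRELD2 and SDF2L1 replicate 1 was not the lower one. Without parental replicate 1 the median of the arm was 0.09, with 10 of 13 genes above 0, where 48% of all genes were under 0. HERPUD1, which helps assemble the degradation machinery and is also induced through ATF4, went the other way, with 3.53 and 3.36 against 3.88 and 3.83, a log2 difference of -0.41 (SE 0.0970, limma adjusted p = 0.0942). SEL1L, the partner of the ubiquitin ligase SYVN1, was the other gene on the lower side, at -0.09.

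**Figure D2:**
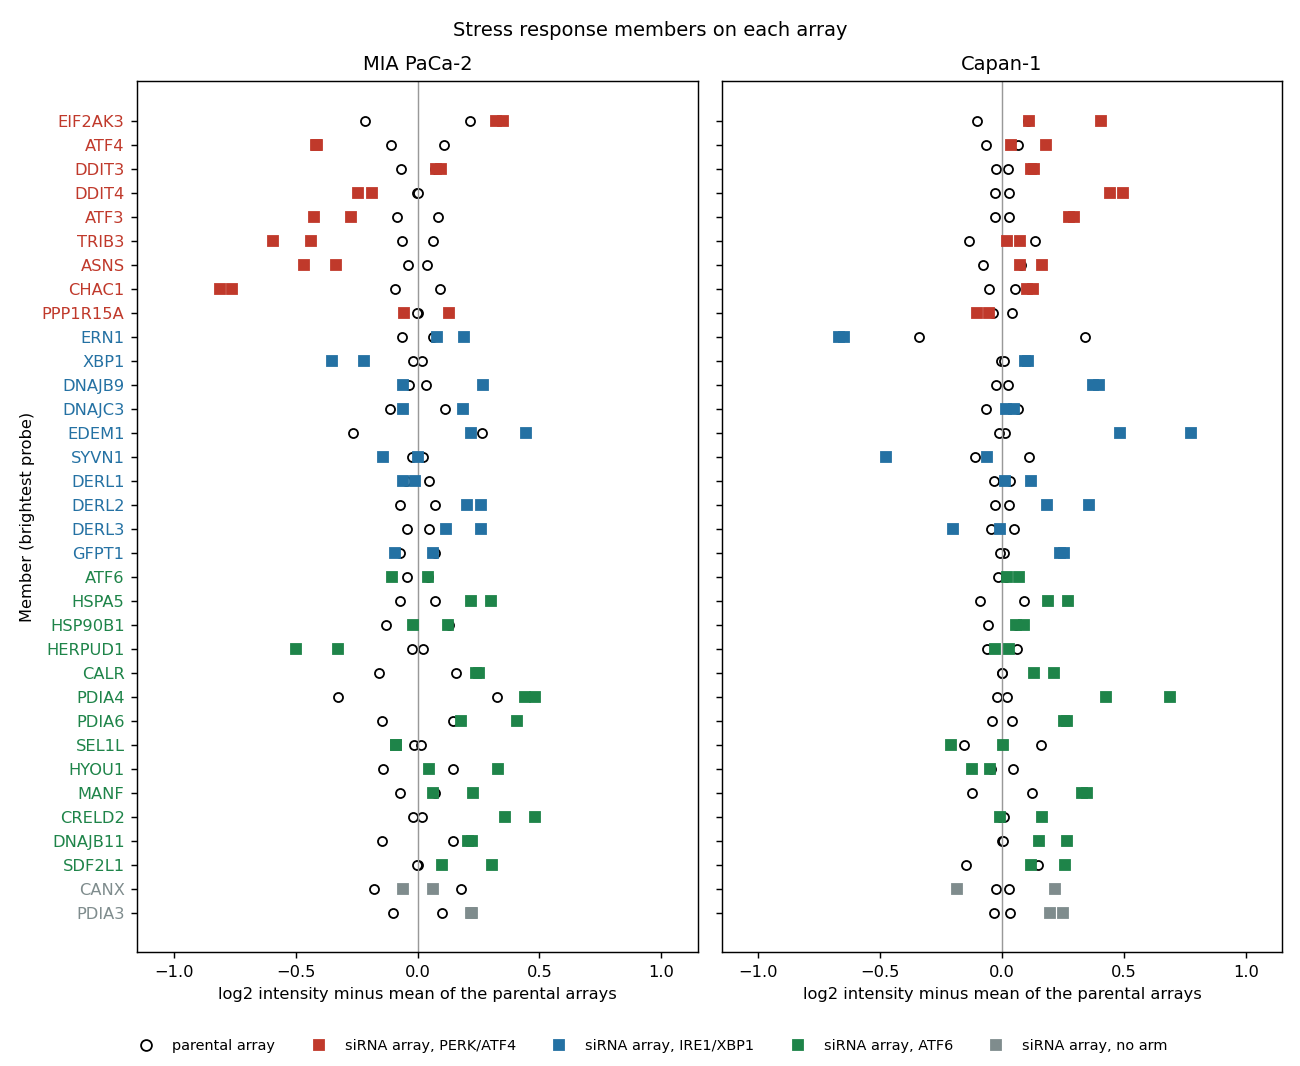
Log2 intensity of the brightest probe of each of the 34 genes on every array, minus the mean of the 2 parental arrays of the same cell line. Open circles are parental arrays and filled squares are siRNA arrays, colored by arm. In MIA PaCa-2, 6 of the 9 genes of the PERK/ATF4 arm have both squares left of both circles, while in Capan-1 only PPP1R15A of that arm does. ERN1 in Capan-1 was well above background on 1 of 4 arrays and was not tested there.

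In Capan-1, 33 members could be tested and none was called, with 0% of all 18938 genes called lower and 0.00528%, a single gene, called higher. ERN1 was left out, being well above background on 1 parental array only. Without adjustment, 8 members had a limma p under 0.05 in the higher direction and none in the lower direction, against 5.66% and 6.63% of all genes. Both siRNA arrays were above both parental arrays for 18 of the 33 members and below for 2, against 27.2% and 26.8% of all genes. A log2 difference under 0 was found in 5 of the 33, against 49.7% of all genes. The median log2 differences of the arms were close to each other, 0.12 for PERK/ATF4, 0.10 for IRE1/XBP1 and 0.17 for ATF6, and that of all genes was 0.0016. All of these are relative to the array as a whole, since without scaling the median of all probes shifted by -0.16 and 18 of the 33 members were under 0, against 78.5% of all genes. Scaling to the spike-in probes shifted that median by -0.24 and put 23 of the 33 under 0, against 87.8% of all genes.

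DDIT4 had the smallest p of the members in Capan-1. It measured 2.64 and 2.69 after siRNA and 2.17 and 2.23 in parental cells, a log2 difference of 0.47 (SE 0.0774, limma adjusted p = 0.179). DNAJB9 gave 1.81 and 1.79 against 1.44 and 1.39, a log2 difference of 0.38 (SE 0.122, limma adjusted p = 0.335). EDEM1 gave -1.70 and -1.41 against -2.17 and -2.19, a log2 difference of 0.63 (SE 0.201, limma adjusted p = 0.338), the largest of the members. The siRNA values of these 3 genes were all above the parental values. The brightest ATF3 probe gave 1.56 and 1.54 against 1.24 and 1.29, a log2 difference of 0.28 (limma adjusted p = 0.355), and the other 3 gave -0.07, 0.12 and 0.21. ATF4 measured 5.90 and 6.05 against 5.93 and 5.80, TRIB3 5.05 and 5.11 against 5.17 and 4.90, and ASNS 5.23 and 5.32 against 5.23 and 5.08. Their groups overlapped, with log2 differences of 0.11, 0.05 and 0.12.

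The sensors and the chaperone readout were as small in Capan-1. EIF2AK3 measured -2.24 and -1.94 against -2.45 and -2.24, a log2 difference of 0.26, and ATF6 1.20 and 1.25 against 1.16 and 1.19, a log2 difference of 0.05. DDIT3 measured -0.13 and -0.15 against -0.24 and -0.29, and XBP1 5.08 and 5.10 against 4.98 and 5.00, both with a narrow gap between groups that did not overlap. HSPA5 measured 1.42 and 1.50 against 1.33 and 1.14, a log2 difference of 0.23 (limma adjusted p = 0.433), close to its 0.26 in MIA PaCa-2. CRELD2 measured 3.26 and 3.09 against 3.09 and 3.11 and HERPUD1 4.53 and 4.59 against 4.62 and 4.49, with overlapping groups for both genes. PDIA4 measured 3.37 and 3.63 against 2.96 and 2.92, a log2 difference of 0.56 with no overlap. The members with both arrays lower were PPP1R15A at -0.08 and HYOU1, a chaperone that exchanges nucleotide on BiP, at -0.09.

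The difference between the cell lines was tested as an interaction, the siRNA difference of MIA PaCa-2 minus that of Capan-1. No member was called, against 0.00485% of 20628 genes in either direction. Without adjustment, 8 members had a limma p under 0.05 with a lower value in MIA PaCa-2 and 2 with a higher one, against 5.1% and 6.17% of all genes. Of the 8, 6 were in the PERK/ATF4 arm. CHAC1 differed by -0.90 (SE 0.137, limma adjusted p = 0.143), DDIT4 by -0.68 (SE 0.109, limma adjusted p = 0.143) and ATF3 by -0.63 (SE 0.141, limma adjusted p = 0.223). TRIB3, ATF4 and ASNS differed by -0.56, -0.52 and -0.52, with limma adjusted p between 0.299 and 0.337. The other 2 were HERPUD1 at -0.41 and XBP1 at -0.38. The 2 with a higher value were CRELD2 at 0.34 and ERN1 at 0.79, the latter read on Capan-1 arrays where it was mostly dim. The medians of the arms were -0.52 for PERK/ATF4, -0.07 for IRE1/XBP1 and 0.01 for ATF6, and that of all genes was 0.01. The dimmer GFPT1 probe differed by -0.99 (limma adjusted p = 0.131), and its brighter probe by -0.26.

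**Figure D3:**
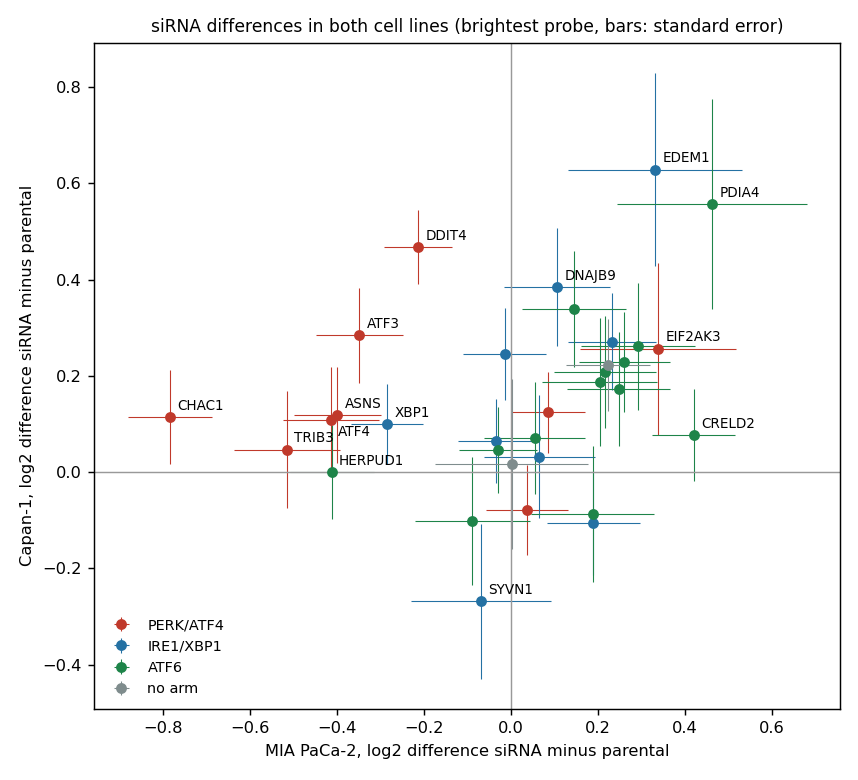
Log2 difference between siRNA and parental arrays, with MIA PaCa-2 on the x axis and Capan-1 on the y axis, for the brightest probe of the 33 members tested in both, colored by arm, with standard errors as bars. CHAC1, TRIB3, ATF4, ASNS, ATF3 and DDIT4 lie left of 0 in MIA PaCa-2 and at or above 0 in Capan-1, while HSPA5, PDIA4 and most of the ATF6 arm lie above 0 in both.

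The promoters of the members were searched for 3 motifs known from this field, in the 250 bases before the gene start of RefSeq on GRCh38.p14 and on both strands. The ER stress response element (ERSE, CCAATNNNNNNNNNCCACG) is read by ATF6, the unfolded protein response element (UPRE, TGACGTGG) by XBP1 and ATF6, and the C/EBP-ATF response element (CARE, TGATGNAA) by ATF4. A promoter was at hand for 31 of the 34 members. ERSE occurred in 22 of 27305 promoters (0.0806%), and in 6 members, CALR, CANX, CRELD2, HSP90B1, HSPA5 and XBP1. CARE occurred in 870 promoters (3.19%), and in 4 members, ASNS, ATF3, CHAC1 and HERPUD1. UPRE occurred in 182 promoters (0.667%), and in HYOU1 alone among the members. The promoters are shown for CHAC1 and 2 further members with CARE that were lower in MIA PaCa-2, and for HSPA5 and CRELD2, which were on the higher side, with the motif in capitals on whichever strand it was found.
CHAC1, chr15:40953221-40953470 (+): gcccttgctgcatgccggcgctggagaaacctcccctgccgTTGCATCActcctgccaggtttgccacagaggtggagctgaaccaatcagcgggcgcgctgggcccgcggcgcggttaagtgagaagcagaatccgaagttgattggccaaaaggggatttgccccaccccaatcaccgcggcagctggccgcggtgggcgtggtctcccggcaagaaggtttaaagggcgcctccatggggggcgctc
ASNS, chr7:97872409-97872658 (-): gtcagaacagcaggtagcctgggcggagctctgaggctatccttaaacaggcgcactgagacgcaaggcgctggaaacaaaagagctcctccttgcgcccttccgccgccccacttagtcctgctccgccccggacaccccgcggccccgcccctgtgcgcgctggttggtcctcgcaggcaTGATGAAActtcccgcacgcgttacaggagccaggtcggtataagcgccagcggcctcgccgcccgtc
HERPUD1, chr16:56931892-56932141 (+): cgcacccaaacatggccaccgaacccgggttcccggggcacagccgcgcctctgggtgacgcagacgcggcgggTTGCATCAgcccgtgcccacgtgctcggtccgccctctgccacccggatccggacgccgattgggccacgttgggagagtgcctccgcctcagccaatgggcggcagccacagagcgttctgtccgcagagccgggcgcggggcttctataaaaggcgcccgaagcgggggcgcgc
HSPA5, chr9:125241344-125241593 (-): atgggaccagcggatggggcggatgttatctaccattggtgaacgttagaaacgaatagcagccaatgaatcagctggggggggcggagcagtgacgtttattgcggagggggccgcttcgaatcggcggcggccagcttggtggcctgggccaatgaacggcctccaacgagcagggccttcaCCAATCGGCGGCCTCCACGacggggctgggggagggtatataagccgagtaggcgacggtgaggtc
CRELD2, chr22:49918384-49918633 (+): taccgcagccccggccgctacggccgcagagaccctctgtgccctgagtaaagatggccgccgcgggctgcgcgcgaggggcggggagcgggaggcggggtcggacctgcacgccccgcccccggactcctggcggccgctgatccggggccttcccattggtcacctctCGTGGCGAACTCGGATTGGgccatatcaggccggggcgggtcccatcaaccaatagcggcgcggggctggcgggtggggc
The CARE letters stand 209 bases before the start of CHAC1, 176 before that of HERPUD1 and 68 before that of ASNS, and the ERSE letters 66 bases before that of HSPA5 and 80 before that of CRELD2. HERPUD1, listed in the ATF6 arm, carries the CARE letters. Its values in MIA PaCa-2 were on the side of the PERK/ATF4 arm, and whether the motif bears on them was not tested. Only the exact letters given were searched. Other forms of these elements were not, so an unmarked stretch, as for ERSE in HERPUD1, does not show that ATF6 has no site there. All 4 members with CARE had both siRNA arrays of MIA PaCa-2 below both parental arrays. Only 3 of the 9 promoters of the PERK/ATF4 arm carried CARE, and ATF4, TRIB3 and DDIT4, also lower on both arrays, did not. Among the further genes of the integrated stress response listed below, 1 of 15 promoters carried it, that of PPP1R15B. Of the 6 with ERSE, CALR, CRELD2 and HSPA5 had both above and XBP1 both below. Among all 17 genes tested with ERSE, 5 (29.4%) had both above and 3 (17.6%) both below. Among all genes tested with CARE in this window, 48 of 200 (24%) had both arrays below and 52 (26%) both above, which is near the 23.8% and 28% of all genes.

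Further genes of the integrated stress response, listed by name, were read on the same 8 arrays. Their list was chosen with earlier results of these data known, so it is not an independent view. Of 24 such genes 23 were tested in MIA PaCa-2, STC2 being dim, and 2 fell and none rose, against 1.12% and 1.17% of all genes. MTHFD2, a mitochondrial enzyme of folate metabolism, measured 2.44 and 2.33 after siRNA and 3.14 and 3.38 in parental cells, a log2 difference of -0.88 (SE 0.107, limma adjusted p = 0.0296). SLC7A11, the cystine transporter, measured -0.53 and -0.62 against 0.08 and 0.21, a log2 difference of -0.72 (SE 0.0943, limma adjusted p = 0.0315). Both are known targets of ATF4. The call of MTHFD2 was lost without any array but MIA PaCa-2 parental replicate 1 (limma adjusted p between 0.0456 and 0.0979), and that of SLC7A11 without any of the 8 (0.0658 to 0.0979). The serine synthesis enzymes PSAT1 and PHGDH and the regulators NUPR1 and ATF5 had log2 differences of -0.57, -0.62, -0.50 and -0.31 with limma adjusted p between 0.0583 and 0.108. On the higher side, TNFRSF10B, a death receptor, and EIF2AK2 (PKR), another kinase of eIF2alpha, had log2 differences of 0.31 and 0.27 (limma adjusted p = 0.102 and 0.220). They were the 2 genes of the list with an unadjusted limma p under 0.05 in that direction, beside 8 in the lower direction, against 10.5% and 10.3% of all genes. Over the list both siRNA arrays were below both parental arrays for 10 genes and above for 4, against 23.8% and 28% of all genes, with a median of -0.22. In Capan-1 no gene of the list was called, 4 were lower and 10 higher on both arrays, against 26.8% and 27.2% of all genes, and the median was 0.07. For the difference between the lines none was called and 18 of 23 values were below 0, against 48.2% of all genes.

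Of 28 further genes of translocation, folding and degradation in the endoplasmic reticulum none was called in either cell line, with medians of 0.08 in Capan-1 and 0.05 in MIA PaCa-2. In MIA PaCa-2 both siRNA arrays were below both parental arrays for 5 and above for 12, against 23.8% and 28% of all genes. Unadjusted limma p was under 0.05 for 3 lower and 3 higher genes in MIA PaCa-2, which is near the 10.3% and 10.5% of all genes. In Capan-1 it was under 0.05 for 4 higher genes and no lower one, against 5.66% and 6.63%. Both siRNA arrays of Capan-1 were above both parental arrays for 12 of the 28 and below for 1, against 27.2% and 26.8% of all genes. Heat shock genes known to answer to HSF1 were read too, mostly cytosolic, with the mitochondrial chaperones HSPD1 and HSPE1 among them. They had no call, with medians of 0.13 over 10 tested genes in Capan-1 and -0.11 over 9 in MIA PaCa-2. Of these, 1 gene had an unadjusted limma p under 0.05 within a cell line, HSPA1A, higher in Capan-1. HSPA1B is a near-identical copy that the HSPA1A probe may also read. Values under 0 were found for 7 of the 9 MIA PaCa-2 genes, against 46.7% of all genes. For Capan-1 this held for 1 of the 10, against 49.7%. The difference between the lines was under 0 for all 10, against 48.2% of all genes. Its median was -0.22, beside -0.52 for the PERK/ATF4 arm. None was called, and 2 had an unadjusted limma p under 0.05. A lower siRNA difference in MIA PaCa-2 was thus also seen outside the lists of the unfolded protein and integrated stress response.

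The parental cell lines differed far more from each other than either did from its siRNA-treated cells. In parental MIA PaCa-2 relative to parental Capan-1, 19 of 34 members were lower and 3 higher, CANX had 1 probe called lower and 1 called higher, and 11 were not called. Over all 20173 genes the shares were 31.7% lower and 40.1% higher. The members had a median log2 difference of -0.60 and all genes one of 0.10. Cell line, slide and medium cannot be told apart here, and in RNA of whole cultures fewer expressing cells and less RNA per cell cannot be told apart.

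DNAJC3, an inhibitor of PERK and cochaperone of BiP, showed the largest of these differences. It measured -1.54 and -1.77 in parental MIA PaCa-2 and 1.05 and 1.18 in parental Capan-1, a log2 difference of -2.77 (SE 0.127, limma adjusted p = 8.21e-06). The brighter GFPT1 probe gave 0.02 and 0.16 against 2.64 and 2.62, a log2 difference of -2.54, and the dimmer one -2.15 and -2.24 against -0.62 and -0.51, a log2 difference of -1.63. Both GFPT1 probes were thus lower in MIA PaCa-2, although they disagreed after siRNA. MANF, a secreted protein that responds to stress of the endoplasmic reticulum, gave 3.83 and 3.98 against 5.92 and 5.67, a log2 difference of -1.89 (limma adjusted p = 3.17e-05). PPP1R15A gave -0.51 and -0.52 against 1.10 and 1.17, a log2 difference of -1.65 (limma adjusted p = 2.03e-05).

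DDIT4 ran against this pattern, with 3.82 and 3.83 in parental MIA PaCa-2 and 2.17 and 2.23 in parental Capan-1, a log2 difference of 1.62 (limma adjusted p = 9.55e-06). The other genes higher in MIA PaCa-2 were ATF4 at 0.45 and ASNS at 0.37, so all 3 belonged to the PERK/ATF4 arm, in which 5 genes were lower. In the IRE1/XBP1 arm 6 of 10 genes were lower and in the ATF6 arm 7 of 13, and none was higher. HSPA5 did not pass, with 0.97 and 1.11 against 1.33 and 1.14 and a log2 difference of -0.20 (limma adjusted p = 0.137). Across the 4 groups DDIT4 therefore ran from parental Capan-1 at the bottom, through Capan-1 after siRNA, to MIA PaCa-2 after siRNA and parental MIA PaCa-2 at the top. The neighbors in this order that belong to the same line were not past the threshold, and the pair of siRNA groups was not tested.

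**Figure D4:**
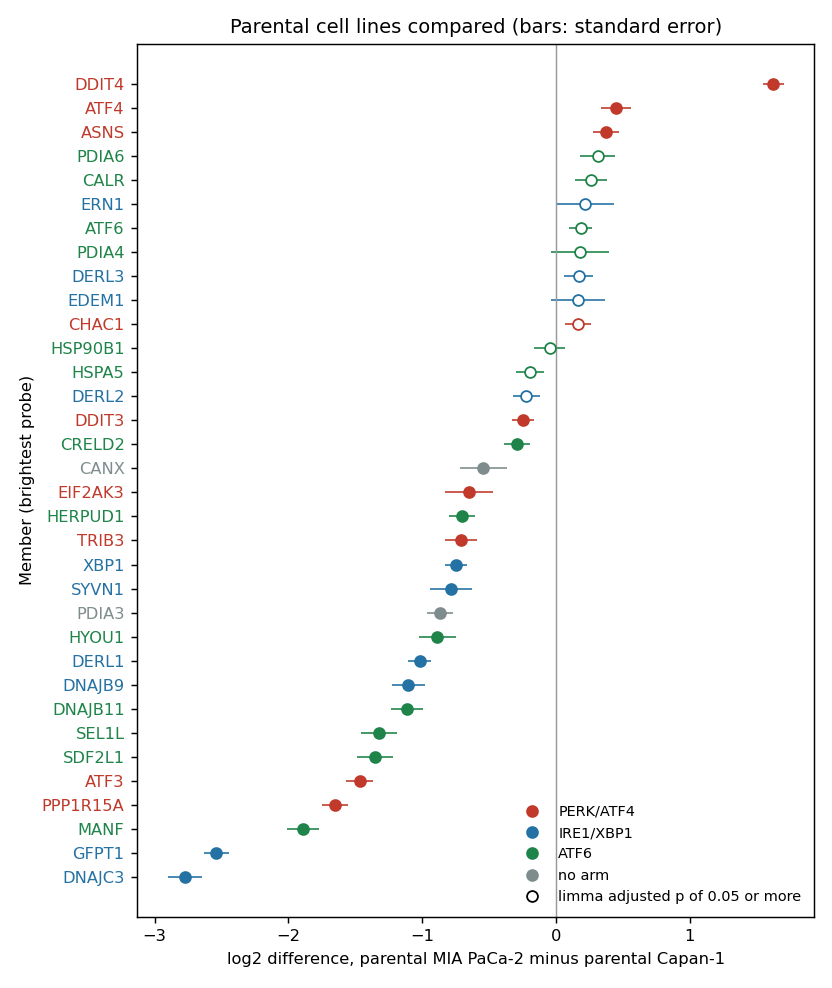
Log2 difference between parental MIA PaCa-2 and parental Capan-1 for the brightest probe of each member, with its standard error, colored by arm and sorted by value. Filled points have a limma adjusted p under 0.05. Values run from -2.77 for DNAJC3 to 1.62 for DDIT4, and the 3 filled points right of 0 are all of the PERK/ATF4 arm.

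Markers were read to check the cell line labels. All 6 epithelial markers (CDH1, EPCAM, KRT19, CEACAM5, CEACAM6 and MUC1) were lower in parental MIA PaCa-2, where CDH1, EPCAM, CEACAM5 and CEACAM6 were not well above background, and the mesenchymal markers VIM and ZEB1 were higher, ZEB1 by a log2 difference of 4.91. Within MIA PaCa-2, MUC1 was lower after siRNA, with 0.06 and 0.10 against 1.08 and 0.93 on its brighter probe (log2 difference -0.92, limma adjusted p = 0.0247), a call that held only without siRNA replicate 2 among the fits that left out 1 array. The dimmer MUC1 probe gave -0.52 (limma adjusted p = 0.0672). With normexp background correction it gave 0.06, where the brighter probe gave -0.80. The part of MUC1 in the values of the stress genes was not tested.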

How the data were processed

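RNA of 2 arrays for each combination of cell line and treatment was labeled with Cy3 and hybridized to Agilent arrays. The authors deposited, per the file headers, the processed intensity of every spot from Agilent Feature Extraction 9.5.3, with background subtracted and outlier flags and background calls kept, and a table of the log2 of these values, which the authors had not scaled between arrays. Coordinates of probes are those of the array annotation (hg18).

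Here, flagged outlier spots were dropped, the log2 values of the remaining spots were averaged per probe, and each array was shifted by its 75th percentile over gene probes. Symbols were updated through RefSeq accessions for 24827 probes, and members were matched by the name in the files. Testing a probe required that 1 of the groups compared had both arrays well above background. Where a group had none, the fold was bounded by the lowest signal among probes well above background. A model of the 4 group means used limma 3.58.1 (R 4.3.3; two-sided, adjusted p under 0.05) and had 4 residual and 1.97 prior degrees of freedom, and the step was tested on simulated data. The number of arrays limits the precision. Other software was the R package data.table (1.17.8), and pandas 2.3.3, numpy 2.4.6 and matplotlib 3.10.9 under Python 3.11.15.

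Members and lists were chosen with earlier results of these data known. Named in full were called members, each GFPT1 probe, the sensors and factors, the 5 members of smallest p in each cell line and the 5 largest differences between parental lines, by the brightest probe first. Arms were described by counts and medians, with no test over members. Alternatives were the background correction (normexp, offset 50), scaling (quantile, none, spike-in probes), outlier spots kept, the deposited table and the filter on dim probes. Others were each line alone, the replicate block, an intensity trend in the spread, the mean of probes and a minimum log2 difference of 1. The last were each array left out and the interval holding 99% of the ratios of the parental pair in windows of 1000 probes. That interval followed the study's methods only in part, since 1 probe could call a gene if none went the other way. The study asked for more than 1 probe per gene, signal in most of them and full agreement in direction.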

Additional observations from a re-analysis of the deposited data

How the results depend on the processing

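With 2 arrays per group and probe signal as the only depth, small differences could not be resolved, and the cause of each change below was not tested. The 2 members called lower in MIA PaCa-2 became 6 with normexp background correction and 6 with a spread that followed intensity, the trend below (ATF4, TRIB3, ASNS, CHAC1, GFPT1 and HERPUD1 in both). They became 1, GFPT1, with no scaling, spike-in scaling, no filter on dim probes, or the interval of the parental pair, 1 with a minimum log2 difference of 1, and 0 with each cell line fitted alone or with the replicate block. In the higher direction the trend called 1 (CRELD2). In Capan-1 the interval called 1 lower (GFPT1) and 2 higher (DDIT4 and DNAJB9), and the trend 1 higher (DDIT4). For the difference between the lines, normexp called 1 lower (CHAC1) and the trend 2 (DDIT4 and CHAC1). Between parental lines, the minimum difference left 11 lower and 1 higher, and the 3 higher became 5 with normexp and 1 with quantile normalization, spike-in scaling or the replicate block.

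Without 1 array, 0 to 1 members were called lower in MIA PaCa-2 and 0 to 1 higher (SEL1L, by a dim probe, without siRNA replicate 1), and 16 to 18 were lower and 1 to 7 higher between parental lines. The count of 7 came without MIA PaCa-2 parental replicate 1 and that of 1 without its replicate 2.

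Medians less that of all genes, in the order all members, PERK/ATF4, IRE1/XBP1 and ATF6, were 0.056, -0.37, 0.066 and 0.18 for MIA PaCa-2 and 0.12, 0.12, 0.098 and 0.17 for Capan-1. With normexp they were 0.0010, -0.32, -0.011 and 0.090 for MIA PaCa-2 and 0.033, 0.055, 0.031 and 0.019 for Capan-1. Quantile normalization gave -0.34 for PERK/ATF4 in MIA PaCa-2. For Capan-1 it gave 0.073 for all members, 0.069 for IRE1/XBP1 and 0.073 for ATF6. The mean of the tested probes gave -0.27 for PERK/ATF4 in MIA PaCa-2 and 0.067 for IRE1/XBP1 in Capan-1, where keeping outlier spots gave 0.089. Without 1 array they ran, in that order, from 0.024 to 0.059, -0.37 to -0.28, -0.012 to 0.093 and 0.078 to 0.21 in MIA PaCa-2, and from 0.10 to 0.17, 0.088 to 0.18, 0.071 to 0.12 and 0.091 to 0.22 in Capan-1.

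No called value changed sign. No scaling and spike-in scaling moved the median of all probes by -0.22 and -0.13 for MIA PaCa-2 and by -0.16 and -0.24 for Capan-1, and small uncalled values changed sign with them. In MIA PaCa-2, no scaling gave -0.13 for DDIT3, -0.11 for DNAJB9 and -0.080 for ERN1, and spike-in scaling -0.047 for DDIT3 and -0.027 for DNAJB9. Quantile normalization gave -0.0019 for ERN1, and normexp 0.017 for the brighter GFPT1 probe. In Capan-1, no scaling and spike-in scaling gave -0.049 and -0.13 for ATF4, -0.11 and -0.20 for ATF6, -0.043 and -0.13 for the brighter CHAC1 probe, -0.080 and -0.16 for CRELD2, -0.033 and -0.12 for DDIT3, -0.16 and -0.24 for HERPUD1, -0.11 and -0.20 for TRIB3, and -0.057 and -0.14 for XBP1. Spike-in scaling gave -0.012 for HSPA5. Normexp gave -0.035 for CRELD2 and -0.099 for HERPUD1, quantile normalization -0.042 for HERPUD1 and -0.041 for TRIB3, and outlier spots kept -0.0046 for HERPUD1. Without 1 array, ATF6 ran from -0.10 to 0.044, DNAJB9 from -0.058 to 0.27 and the brighter GFPT1 probe from -0.092 to 0.064 in MIA PaCa-2. In Capan-1, CRELD2 ran from -0.0076 to 0.16, HERPUD1 from -0.062 to 0.063 and TRIB3 from -0.088 to 0.18.

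Over all genes in MIA PaCa-2, where 215 were called lower and 225 higher, the counts were 500 and 438 with normexp, 654 and 559 with the trend, 5 and 5 with no filter, 517 and 424 when each probe had to exceed background on every array, and from 1 to 184 lower and 2 to 538 higher without 1 array. With each line alone or the replicate block limma called none, beside 1909 lower and 2160 higher probes, and 1874 and 2258, at an unadjusted p under 0.05. In Capan-1, where 0 were lower and 1 higher, normexp gave 34 and 43, the trend 22 and 28, and the fits without 1 array at most 40 and 117. The replicate block rests on numbers that the labels tie to no shared culture or day. The same-numbered arrays of a line did not deviate together (r = 0.021 for MIA PaCa-2 and 0.028 for Capan-1), so the numbers were not taken as pairs.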
